A study of Mus musculus with 6 samples.

Results

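Melanin is made in melanosomes, lysosome-related organelles of melanocytes and of the pigment epithelia of the eye. Tyrosinase and its relatives Tyrp1 and Dct carry out its synthesis, Pmel forms the fibrils on which it is laid down, and the transcription factor Mitf switches these genes on. In the eye, melanocytes of neural crest origin, which need Sox10, lie in the choroid, the iris stroma and the limbus. The pigment epithelia of retina, iris and ciliary body come from the optic cup instead. A cornea freed of these neighbours is a clear tissue. The 10 pigment cell genes Tyr, Tyrp1, Dct, Pmel, Mlana, Slc45a2, Oca2, Gpnmb, Mitf and Sox10 were chosen by name, out of 19938 gene symbols that the array annotation pairs with a probe set of their own. They had 11 probe sets, 2 of them for Mitf, and for Mitf the brighter one was used.

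Affymetrix Mouse Gene 1.0 ST arrays were hybridised with RNA of entire corneas dissected at postnatal day 3. There were 3 arrays of DN-Clim corneas, from mice with a dominant-negative CLIM transgene under the keratin 14 promoter, and 3 of corneas from wild-type (WT) littermates. CLIM proteins are cofactors of LIM-domain regulators, and keratin 14 is a keratin of basal epithelial cells, so that the transgene is aimed at the epithelium and not at pigment cells. The labels name neither the strain or coat colour nor the number of animals behind an array, so that a p-value here speaks only for the spread among the samples, part of which may be technical. Levels are given as log2(intensity + 16), and a difference is the DN-Clim mean less the WT mean. The number of arrays limits the precision. Array medians lay between 7.95 and 8.21, the highest being that of DN-Clim replicate 3. That array correlated with the WT arrays at 0.949 to 0.962 over all tested probe sets, but only at 0.928 with DN-Clim replicate 1 and 0.9 with replicate 2. As a gauge of dim signal, the 95th percentile of 1035 olfactory receptor probe sets, genes with no known use in cornea, was taken on each array. It was 8.42, 8.14 and 8.95 in DN-Clim (replicates 1, 2 and 3, here and wherever 3 values are listed) and 8.48 to 8.62 in WT, and is called the dim limit below.

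RNA of pigment cell genes was detected in these corneas, and its level differed more between the DN-Clim samples than between DN-Clim and WT. The 6 genes Tyr, Tyrp1, Dct, Pmel, Mlana and Gpnmb moved together: they were within or above the WT range on DN-Clim replicates 1 and 2 and lowest of all on DN-Clim replicate 3. Slc45a2, Oca2 and Sox10 did not follow them, and Mitf did so on DN-Clim replicates 1 and 2 but not on replicate 3. Pmel lay above the dim limit on all 6 arrays. Tyrp1, Dct, Mlana and Gpnmb did so on 5 arrays each, the exception for each being DN-Clim replicate 3. Oca2 was above it on 4 arrays, Tyr on 3 and Mitf on 2, while Slc45a2 and Sox10 were above it on none. In whole-tissue RNA, fewer cells of a type and less RNA per cell cannot be told apart.

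**Figure D1:**
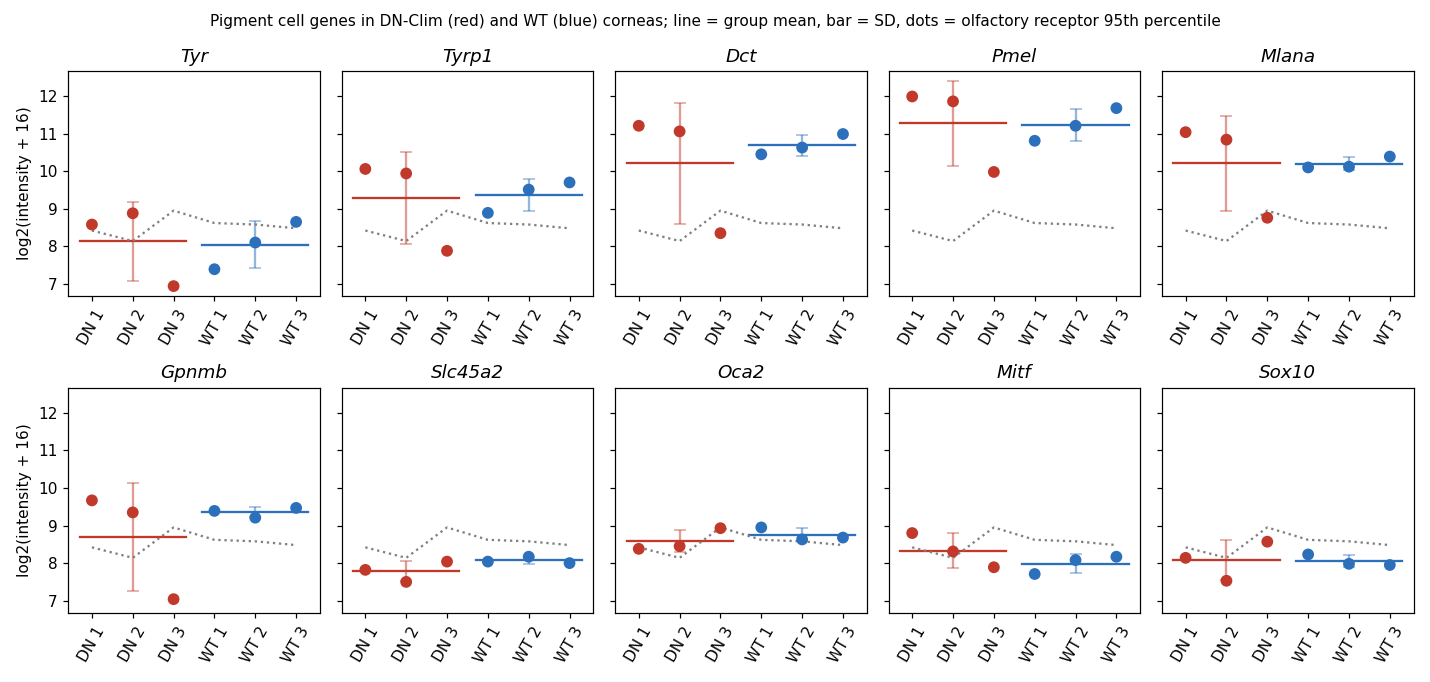
Level of each pigment cell gene, as log2(intensity + 16) on the y axis, on the 3 DN-Clim arrays (red) and the 3 WT arrays (blue), with group means as lines, SD as bars and the dim limit of each array dotted. For the first 6 genes DN-Clim replicate 3 is the lowest point, from 6.94 for Tyr to 9.98 for Pmel, and the other 2 DN-Clim arrays lie near or above the WT points.

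The enzymes of melanin synthesis come first. Tyr, tyrosinase, the rate-limiting enzyme, read 8.58, 8.88 and 6.94 in DN-Clim and 7.39, 8.10 and 8.65 in WT. The WT arrays alone spanned 1.26. DN-Clim replicate 1 lay inside the WT range, replicate 2 above it and replicate 3 below it. The means were 8.13 ± 1.05 in DN-Clim and 8.04 ± 0.63 in WT (SD, n = 3 each), and the difference of 0.09 had an SE of 0.492. Tyrp1, a tyrosinase relative that acts in the making of black-brown pigment, read 10.06, 9.94 and 7.88 in DN-Clim and 8.89, 9.51 and 9.70 in WT. Here replicates 1 and 2 lay above every WT array and replicate 3 below every one, and the group difference was -0.07 (SE 0.521).

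Dct, dopachrome tautomerase, the enzyme between the steps of the other two, showed the widest span of the 10 genes, 2.87. It read 11.21, 11.06 and 8.35 in DN-Clim and 10.45, 10.63 and 10.99 in WT. DN-Clim replicate 3 lay 5.07-fold below the WT mean on this scale and 6.91-fold below the mean of the other 2 DN-Clim arrays. The group means were 10.21 ± 1.61 in DN-Clim and 10.69 ± 0.27 in WT (SD, n = 3 each). The difference of -0.48 was smaller than its SE of 0.643.

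The melanosome proteins followed the enzymes. Pmel, whose fragments build the melanosome's fibrils, read 11.99, 11.86 and 9.98 in DN-Clim and 10.81, 11.21 and 11.68 in WT. Mlana, a melanosome membrane protein needed for the processing of Pmel, read 11.04, 10.84 and 8.76 in DN-Clim and 10.10, 10.12 and 10.39 in WT. For both, replicates 1 and 2 were above all WT arrays and replicate 3 below all, and the group differences were 0.04 (SE 0.487) for Pmel and 0.01 (SE 0.511) for Mlana. Another 15 probe sets that list Pmel among several genes were not used.

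Gpnmb, a glycoprotein of melanosomes that lysosomes of macrophages also carry, read 9.67, 9.35 and 7.04 in DN-Clim and 9.39, 9.21 and 9.47 in WT. Unlike the other 5 genes it was close to the WT level on replicates 1 and 2, at 0.31 above and 0.00 from the WT mean, and its WT arrays lay within 0.26 of each other. Replicate 3 lay 4.99-fold below the WT mean. The group difference was -0.67 (SE 0.572).

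The transporters Slc45a2 and Oca2, which set the ion content and acidity of melanosomes, ran differently. Slc45a2 read 7.82, 7.50 and 8.04 in DN-Clim and 8.04, 8.17 and 8.0 in WT, all below the dim limit. Oca2 read 8.38, 8.45 and 8.93 in DN-Clim and 8.95, 8.63 and 8.68 in WT. Both were below every WT array on DN-Clim replicates 1 and 2, as were 38.8% and 50.0% of tested probe sets on those arrays. On replicate 3 both were inside the WT range, unlike the enzymes. Dim signal was itself highest on that array, with olfactory receptor medians of 6.93, 6.64 and 7.38 in DN-Clim and 7.0 to 7.13 in WT. The part of this shift in the 2 genes was not tested. Values of Slc45a2 and Oca2 stayed within 0.67 and 0.57 over all 6 arrays, at or near the signal of genes with no known use in cornea. The group differences were -0.29 (SE 0.197) and -0.16 (SE 0.211).

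Of the 2 regulators, Mitf, which activates the melanin genes, read 8.80, 8.31 and 7.89 in DN-Clim and 7.71, 8.08 and 8.17 in WT. Replicates 1 and 2 were above all WT arrays, as for most enzymes, but replicate 3 stayed inside the WT range, and the group difference was 0.34 (SE 0.257). The dimmer Mitf probe set, at 5.14 to 5.90, differed by 0.10 (SE 0.229). Sox10, the neural crest factor that activates Mitf and Dct, read 8.14, 7.53 and 8.57 in DN-Clim and 8.23, 7.98 and 7.95 in WT, all below the dim limit. Its highest value fell on DN-Clim replicate 3, where the enzymes were lowest but the dim limit was highest. The group difference was 0.03 (SE 0.265).

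None of the 10 genes passed the limma threshold of 0.05 between the groups, in either direction, and each had an adjusted p of 0.999. None had an unadjusted p under 0.05 either. Over all 23410 tested probe sets 0.0128% passed after adjustment, all lower in DN-Clim, and 5.94% had an unadjusted p under 0.05. The groups overlapped for all 10 genes, while 6.95% of tested probe sets were lower and 3.20% higher in DN-Clim without overlap. The median difference of the 10 genes was -0.03, against -0.04 over all tested probe sets. Without DN-Clim replicate 3 the differences turned positive for Tyrp1 (0.64), Dct (0.45) and Gpnmb (0.15) and negative for Sox10 (-0.22), and none of the 10 passed, the smallest adjusted p being that of Mlana (0.73, limma adjusted p = 0.0752). The sign for Tyrp1 also turned with median centring, and that for Mlana with quantile normalization. The missing call does not show that the groups were alike. The 95% interval of the difference ran from -1.93 to 0.96 for Dct, from -1.96 to 0.62 for Gpnmb and from -1.02 to 1.20 for Tyr.

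Singly, the DN-Clim arrays stood on opposite sides of all WT arrays for Tyrp1, Dct, Pmel and Mlana, but not for the other members. DN-Clim replicate 3 was the lowest of all 6 arrays for 6 of the 10 genes, which holds for 18.8% of tested probe sets. It lay more than 1 log2 unit below the lowest WT array for 4 of them, Tyrp1, Dct, Mlana and Gpnmb, against 0.726% of tested probe sets. For Tyr and Pmel its gap to the lowest WT value was -0.45 and -0.83. Ranked by how far this array lay below all 5 others, Gpnmb (a gap of -2.17) was in place 1 and Dct (-2.10) in place 2 of 23410. DN-Clim replicates 1 and 2 were each above all WT arrays for 6 of the 10 genes, which holds for 23.1% and 27.2% of tested probe sets. They shared Tyrp1, Dct, Pmel, Mlana and Mitf, and none of the 10 exceeded the highest WT array by more than 1 log2 unit on either, as 0.312% and 1.17% of tested probe sets did.

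**Figure D2:**
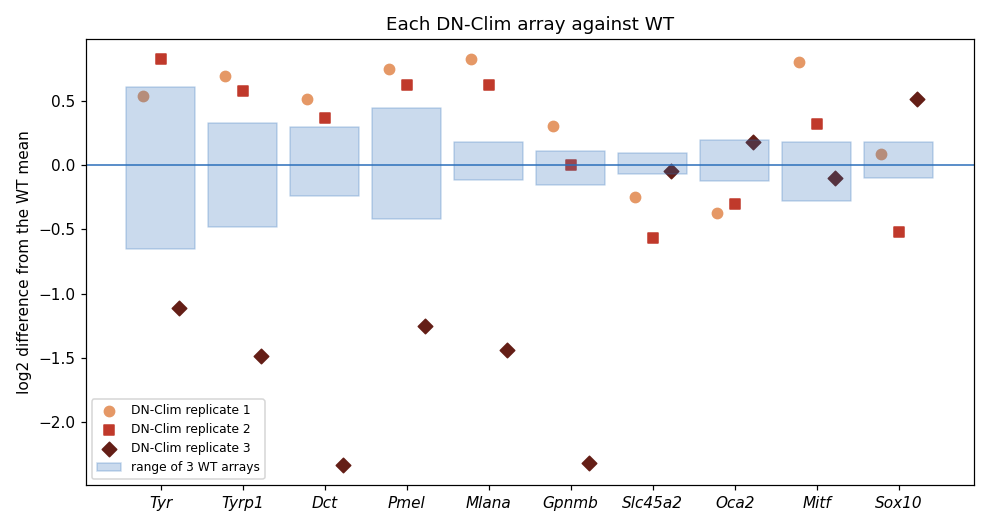
Difference of each DN-Clim array from the WT mean, in log2 units on the y axis, for the 10 genes, with the range of the 3 WT arrays shaded. For the first 6 genes DN-Clim replicate 3 is at -1.11 (Tyr) to -2.34 (Dct), while replicates 1 and 2 are at 0.00 to 0.83.

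Each DN-Clim array was also fitted alone against the 3 WT arrays, on the assumption that the lone sample varies like WT. That assumption is doubtful for replicates 2 and 3. Array weights, which are lower for arrays of wider spread, were 3.06, 0.385 and 0.199 in DN-Clim and 1.13 to 2.89 in WT. With replicate 3 alone, Dct fell by 2.34 (SE 0.239, limma adjusted p = 0.0361), Gpnmb fell by 2.32 (SE 0.194, adjusted p = 0.0361) and Mlana fell by 1.44 (SE 0.201, adjusted p = 0.0442). Tyrp1 (-1.49, adjusted p = 0.113), Pmel (-1.25, adjusted p = 0.135) and Tyr (-1.11, adjusted p = 0.211) did not pass, and the other 4 genes had adjusted p-values from 0.221 to 0.93. In that fit 79 probe sets passed in all. None of the 10 genes passed with replicate 1 alone, where Mlana had the smallest adjusted p (0.83, adjusted p = 0.118). Nor did any with replicate 2 alone, where Mlana was again the smallest (0.63, adjusted p = 0.0925). These p-values describe 1 sample against WT and not the transgene.

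Over the 6 arrays the 5 genes Tyr, Tyrp1, Dct, Pmel and Mlana had pairwise Pearson correlations of 0.87 to 0.99, given as a description of 6 points that share arrays. Without DN-Clim replicate 3 they were 0.75 to 0.99, so that these genes also varied together over the other 5 arrays. Tyr ordered those arrays differently, with DN-Clim replicate 2 highest and replicate 1 below WT replicate 3. Gpnmb had 0.75 to 0.98 with these 5 genes over 6 arrays, but 0.28 (with Tyr) to 0.69 (with Mlana) without that array. Mitf had 0.57 to 0.77 with them over 6 arrays and 0.74 to 0.92 without it. The WT arrays carried part of the pattern, with WT replicate 3 highest and WT replicate 1 lowest for Tyr, Tyrp1, Dct, Pmel, Mlana and Mitf. The 5 genes most like the mean of Tyr, Tyrp1, Dct, Pmel, Mlana and Slc45a2, among 1966 probe sets with an SD of at least 0.5, were H3c15, Golga7, Fam174a, Ift74 and Wdr20. Their Pearson correlations were 0.977 to 0.989 over 6 arrays and 0.89 to 0.96 without DN-Clim replicate 3.

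Upstream sequence was examined because the members that moved together include known Mitf targets. RefSeq promoter windows on build GRCm38.p6, 250 bases before to 50 after an annotated start, were found for 6 of the 10 genes, with 3 windows for Mitf. Pmel, Mlana, Slc45a2 and Sox10 were not matched. The 250 bases before the start are shown 5′ to 3′ on the gene's strand, with capitals for the letters CATGTG, the core of the M-box bound by Mitf, or their reverse complement CACATG. Tyr, Tyrp1 and Dct are shown as the enzymes that varied together, Gpnmb as the gene with the largest gap on DN-Clim replicate 3, and Oca2 as a gene that did not follow. The windows are Tyr at chr7:87493513-87493762 (minus strand), Tyrp1 at chr4:80833963-80834212 (plus), Dct at chr14:118052247-118052496 (minus), Gpnmb at chr6:49036268-49036517 (plus) and Oca2 at chr7:56239509-56239758 (plus).
Tyr: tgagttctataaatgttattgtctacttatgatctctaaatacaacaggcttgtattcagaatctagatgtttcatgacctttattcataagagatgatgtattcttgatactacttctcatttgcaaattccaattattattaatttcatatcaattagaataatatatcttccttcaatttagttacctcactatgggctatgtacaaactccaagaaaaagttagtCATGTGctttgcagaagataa
Tyrp1: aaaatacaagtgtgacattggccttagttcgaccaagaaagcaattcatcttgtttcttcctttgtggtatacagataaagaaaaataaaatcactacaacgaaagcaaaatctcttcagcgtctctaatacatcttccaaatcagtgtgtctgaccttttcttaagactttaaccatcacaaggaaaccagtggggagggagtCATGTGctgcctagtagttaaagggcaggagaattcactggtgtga
Dct: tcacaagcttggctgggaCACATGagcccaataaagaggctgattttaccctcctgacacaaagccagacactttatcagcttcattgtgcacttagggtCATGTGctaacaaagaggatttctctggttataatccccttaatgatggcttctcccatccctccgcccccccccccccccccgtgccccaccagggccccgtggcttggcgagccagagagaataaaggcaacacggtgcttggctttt
Gpnmb: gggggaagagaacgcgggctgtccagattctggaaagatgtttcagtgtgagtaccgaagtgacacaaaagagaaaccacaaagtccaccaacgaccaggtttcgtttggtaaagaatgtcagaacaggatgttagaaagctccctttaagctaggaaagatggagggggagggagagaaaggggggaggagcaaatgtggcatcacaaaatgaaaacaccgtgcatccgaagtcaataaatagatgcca
Oca2: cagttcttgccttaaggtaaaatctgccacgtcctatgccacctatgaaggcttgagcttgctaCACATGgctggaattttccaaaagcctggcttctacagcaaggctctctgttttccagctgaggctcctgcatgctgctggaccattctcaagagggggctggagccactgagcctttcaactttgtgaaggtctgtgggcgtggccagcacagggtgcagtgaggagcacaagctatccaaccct

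The M-box core began 21 bases before the start in Tyr, 46 before it in Tyrp1, and 150 and 232 before it in Dct, while in Oca2 it lay 186 before. The windows of Gpnmb and Mitf held none. Thus 4 of the 6 genes, and 4 of their 8 windows, held CATGTG on either strand, against 14.2% of all 32851 windows. In Tyr, Tyrp1 and Dct the match stood inside the longer run TCATGTGCT, which was picked after these windows were read and occurs on either strand in 0.408% of all windows. The canonical E-box CACGTG was in none of the 8 windows and in 7.15% of all windows. The SOX core ACAAAG, on either strand, was in 4 of the 8 windows, those of Tyrp1, Dct, Oca2 and Gpnmb, and in 18.7% of all windows. No motif match overlapped another of these kinds, apart from the longer run and its own core. A match describes letters and not binding.

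**Figure D3:**
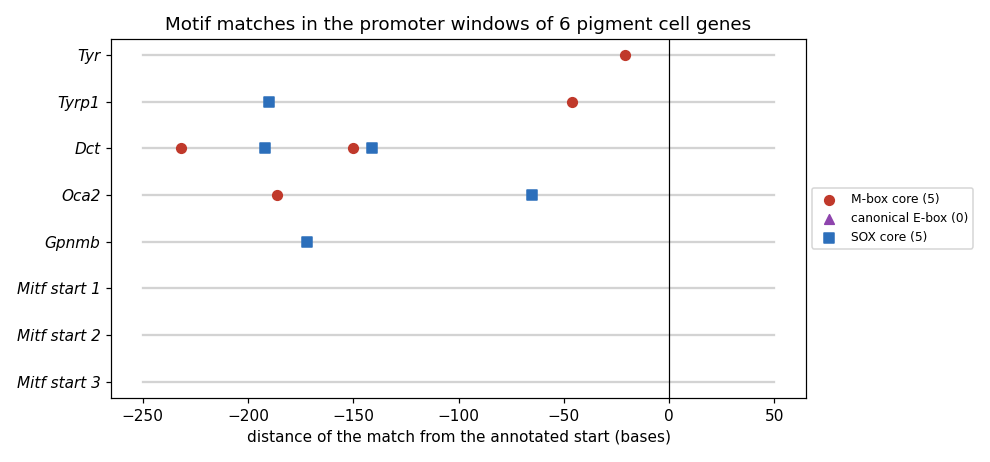
Position of motif matches, in bases from the annotated start on the x axis, in the 8 windows of 6 pigment cell genes (grey lines). M-box cores (red circles) lie in Tyr, Tyrp1, Dct and Oca2, the SOX core (blue squares) in 4 genes, and the 3 Mitf windows hold neither.

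Other genes of the pigment pathway did not share the pattern as lists, though a gene below the dim limit can hardly show a fall. Of the 28 genes of melanosome assembly and transport, 7 were below that limit on all arrays and 10 above it on all. Of 28 genes of melanosome assembly and transport none rose or fell past the threshold, and 2 had an unadjusted p under 0.05. The list median was -0.05, and the 3 DN-Clim arrays had list medians of -0.09, -0.10 and 0.08 against the WT mean. Hps5, of a complex that sorts melanosome cargo, differed by 0.52 (SE 0.183, limma adjusted p = 0.767), and Trpm1, a cation channel of melanocytes, by -0.41 (SE 0.276). Bace2, a protease that cuts Pmel, was the 1 member over 1 log2 unit below the lowest WT array on DN-Clim replicate 3. It read 8.09, 8.64 and 7.49 in DN-Clim and 8.78, 8.65 and 8.78 in WT, a difference of -0.66 (SE 0.276, adjusted p = 0.821). Rab27a, which ties melanosomes to their motor, was picked after its values were seen. It read 9.40, 9.29 and 7.97 in DN-Clim and 8.85, 8.80 and 8.97 in WT, so that replicates 1 and 2 were above all WT arrays and replicate 3 below all, as for Tyrp1 and Dct. Slc24a5, also picked after its values were seen, was above the dim limit on all arrays. It read 10.22, 10.50 and 9.76 in DN-Clim and 9.62, 9.85 and 10.26 in WT, so that replicate 3 stayed inside the WT range. On replicate 3, 8 of the 28 genes were below all WT arrays and 9 above, where all tested probe sets gave 28.2% and 39.8%.

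Of 18 melanocyte regulators and receptors none passed and 1 had an unadjusted p under 0.05, with a list median of -0.15. That gene was Kitl, the ligand of the melanocyte receptor Kit. It read 7.05, 6.75 and 7.13 in DN-Clim and 8.22, 8.16 and 7.58 in WT, a difference of -1.01 (SE 0.225, limma adjusted p = 0.512), with every value below the dim limit. Snai2, a neural crest factor, differed by -0.51 (SE 0.285) and Tfap2a, a factor of neural crest and surface epithelium, by 0.47 (SE 0.272). Below the dim limit on all arrays were 10 of the 18 genes, and 5 were above it on all, so that most of the list could hardly show a fall. Kit and the endothelin receptor Ednrb, picked after their values were seen, were above the dim limit on all arrays. Kit read 9.49, 9.50 and 9.10 in DN-Clim and 9.57, 9.16 and 9.34 in WT. Ednrb read 9.47, 9.92 and 11.20 in DN-Clim and 10.23, 10.71 and 10.52 in WT, so that DN-Clim replicate 3 was highest for this receptor.

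Markers of neighbouring tissues also separated the DN-Clim arrays, and their part in the pigment values was not tested. The summed intensity of 18 lens genes was 113977, 109200 and 7893 in DN-Clim and 7403 to 9699 in WT. For the 10 pigment genes the sums were 11932, 10667 and 3465 in DN-Clim and 6711 to 9636 in WT. On replicate 3, 4 of the 18 lens genes were below all WT arrays and 8 above, where all tested probe sets gave 28.2% and 39.8%. All 18 differences were above 0, as were 10017 of the 23410 tested, and 11 had an unadjusted p under 0.05, against 5.94% of all tested. None of the lens genes passed (Grifin 0.85, Cryab 0.94 and Tdrd7 0.82, adjusted p 0.612 to 0.699). The 12 retina and photoreceptor genes summed to 8486, 13111 and 3954 in DN-Clim and 2535 to 5308 in WT. None was below all WT arrays on replicate 3. All 12 differences were above 0, 6 had an unadjusted p under 0.05, and none passed (Pde6b 1.36, Rcvrn 1.12 and Six6 1.32, adjusted p = 0.788 each).

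Of 15 genes of the retinal pigment epithelium, a list that shares Tyrp1, none passed and none had an unadjusted p under 0.05, with a list median of 0.02. They summed to 14434, 16971 and 7258 in DN-Clim and 6839 to 10512 in WT. Otx2 alone made up 4974, 6611 and 1581 of this in DN-Clim and 1061 to 3145 in WT. Ttr made up 2861, 3247 and 262 in DN-Clim and 489 to 1461 in WT. The list medians against the WT mean were flat, at 0.07, 0.03 and 0.02 on the 3 DN-Clim arrays. Of the 15 genes, 6 were below the dim limit on all arrays. Rpe65, the visual cycle isomerase that defines this epithelium, was below the dim limit on every array, at 6.12, 5.76 and 6.32 in DN-Clim and 5.65 to 6.34 in WT. Otx2, a factor of this epithelium and of retina, read 12.28, 12.69 and 10.64 in DN-Clim and 10.07, 10.75 and 11.63 in WT, so that DN-Clim replicate 3 stayed inside the WT range where Tyrp1 did not. Ttr, a carrier of thyroid hormone made by this epithelium and by ciliary body, was picked after its values were seen. It read 11.49, 11.67 and 8.12 in DN-Clim and 9.43, 8.98 and 10.53 in WT, so that replicates 1 and 2 were above all WT arrays and replicate 3 below all, as for Tyrp1. Its difference was 0.78 (SE 0.835, limma adjusted p = 0.999). Rlbp1 and Trpm3 differed by 0.82 and 0.42 (adjusted p 0.883 and 0.859).

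Of 11 genes of Schwann cells and neural crest glia, which include Sox10, 1 had an unadjusted p under 0.05 and none passed, and the median was -0.07 (Egr2 -0.48, Fabp7 0.93 and S100b -0.35). Their summed intensity was 14749, 17297 and 10982 in DN-Clim and 8149 to 14665 in WT. Fabp7 alone made up 9960, 13185 and 5965 of this in DN-Clim and 3203 to 9884 in WT. The list medians against the WT mean ran otherwise, at -0.03, -0.44 and 0.29 on the 3 DN-Clim arrays. Of the 11 genes, 6 were below the dim limit on all arrays. All 14 macrophage genes were lower in DN-Clim by their means, as were 13393 of the 23410 tested probe sets. Of the 14, 6 had an unadjusted p under 0.05 and none passed, with a median of -0.46. Mrc1 differed by -1.46 (adjusted p = 0.341), Lyz2 by -0.79 and Cd68 by -0.57. They summed to 3330, 3199 and 5064 in DN-Clim and 5770 to 6750 in WT. Ctsk alone made up 683, 460 and 2355 of this in DN-Clim and 2098 to 2590 in WT. The 3 DN-Clim arrays had list medians of -0.52, -0.42 and -0.25 against the WT mean. Below the dim limit on all arrays were 8 of the 14 genes, among them Csf1r, the growth factor receptor of macrophages. Gpnmb, which macrophages also make, was low on replicate 3 alone, and the part of macrophages in its level was not tested. Of 15 cornea genes 7 had an unadjusted p under 0.05 and none passed, with a median of -0.27 (Aldh1a1 1.15, Krt14 -0.63 and Aldh3a1 -1.09). Their summed intensity was 35381, 32037 and 49196 in DN-Clim and 45815 to 52042 in WT, and 12 of the 15 lay above the dim limit on all arrays.

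**Figure D4:**
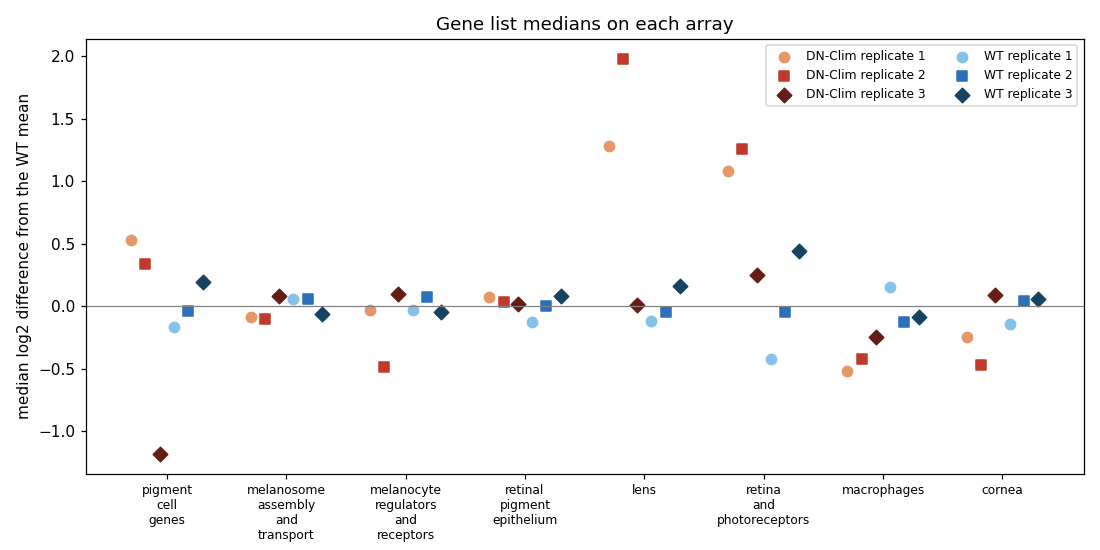
Median log2 difference from the WT mean, on the y axis, of 8 gene lists on each of the 6 arrays. The pigment cell list is at -1.18 on DN-Clim replicate 3 and at 0.53 and 0.34 on replicates 1 and 2, the lens list is at 1.28 and 1.98 on replicates 1 and 2 and at 0.01 on replicate 3, and the other pigment pathway lists stay between -0.49 and 0.10.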

How the data were processed

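The authors deposited probe set intensities on a linear scale, made with Affymetrix Expression Console 1.1 and PLIER per the submitters' processing notes. Background correction, normalization and offset are not stated there. Of 35557 probe sets in the table, a platform annotation paired 23410 with a gene, and 21789 of these with exactly 1 symbol. The scale used here is log2(intensity + 16), which understates changes of dim genes. Array medians on it differed by at most 0.267, under the limit of 0.5 for centring, so none was done. A limma fit (version 3.58.1, R 4.3.3) with lmFit and eBayes compared DN-Clim with WT over the 23410 probe sets, with Benjamini-Hochberg adjustment over all of them and calls made at 0.05. Each adjusted p-value is from limma, whose use here was tested on simulated data with independent noise of equal spread on all arrays. The real arrays did not vary alike, so that simulation cannot show how well the calls hold here. Genes were also compared array by array.

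All 10 members were named. From each other list the members past the threshold, or else the 3 with the smallest p, were named, and other names were picked after their values were seen. Members and lists were chosen with earlier results of these data known. Some genes of these lists are not reported here. Alternatives were other offsets, normalizations, filters, priors, weights, a replicate block, a lens covariate and leaving out arrays. Fits of DN-Clim replicates 1 and 2 alone were added after seeing the data.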

Additional observations from a re-analysis of the deposited data

How the results depend on the processing

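Of 187 comparisons of the 10 genes with an alternative, 142 kept their direction and side of the threshold, 5 kept their direction and passed where the fit of all arrays did not, and 40 turned direction, 1 of which (Mlana with DN-Clim replicate 3 alone) also passed. The causes were not tested. Tyr, Tyrp1, Pmel, Mlana and Sox10 differed by under 0.1 with all arrays, so that their sign carries little. Median centring turned Tyrp1 (0), and quantile normalization turned Mlana (-0.05). With array weights, Tyrp1 (0.51), Dct (0.36) and Gpnmb (0.18) turned and Mitf passed (0.67, adjusted p = 0.0391). These weights were estimated gene by gene, since the usual estimate did not converge, and were 3.06, 0.385 and 0.199 on DN-Clim replicates 1, 2 and 3. With the lens mean as a covariate, Dct (-2.20, adjusted p = 0.0423) and Gpnmb (-2.17, adjusted p = 0.0472) passed as lower, and Tyr (-1.08), Pmel (-1.19), Mlana (-1.33), Mitf (-0.08) and Oca2 (0.16) turned. That covariate sets DN-Clim replicates 1 and 2 apart and is no separate check from replicate 3 alone. With replicate 3 alone against WT, Dct (-2.34) and Gpnmb (-2.32) passed, and Mlana (-1.44, which passed), Pmel (-1.25), Tyr (-1.11), Mitf (-0.10) and Oca2 (0.18) turned. With replicate 1 alone Tyrp1 (0.70), Dct (0.52) and Gpnmb (0.31) turned, and with replicate 2 alone Tyrp1 (0.58), Dct (0.37) and Sox10 (-0.52).

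Leaving out single arrays, no gene passed. The difference ran from -0.29 to 0.68 for Tyr, -0.45 to 0.64 for Tyrp1, -0.99 to 0.45 for Dct, -0.31 to 0.69 for Pmel, -0.41 to 0.73 for Mlana, -1.16 to 0.15 for Gpnmb and -0.22 to 0.30 for Sox10. It kept its sign for Slc45a2 (-0.41 to -0.14), Oca2 (-0.34 to -0.06) and Mitf (0.11 to 0.57). Without DN-Clim replicate 3, Dct was at 0.45, Gpnmb at 0.15 and Tyrp1 at 0.64.

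The number of probe sets past the threshold, 3 with all arrays, was 1 with quantile normalization, 0 with all probe sets of the table, 5 with a trended robust prior, 2059 with array weights, 8 with the lens covariate, and 283, 1612 and 79 with DN-Clim replicates 1, 2 and 3 alone. It ran from 0 to 483 when single arrays were left out, the 483 being without DN-Clim replicate 3. The replicate block gave 9 and changed no call of the 10 genes. The replicate numbers were not taken to pair the samples. Same-numbered arrays had deviation correlations of 0.02, -0.21 and -0.44, and other-numbered arrays had -0.28 to 0.45. With 3 arrays in each group these values cannot exclude a shared litter or batch. Under the filter on dim probe sets Tyr, Slc45a2, Mitf and Sox10 gave no value.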

Other observations

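Listing the probe sets by how far DN-Clim replicate 3 lay below all 5 other arrays, the places after Gpnmb and Dct held several crystallins, structural proteins of the lens. Crygd was in place 3, with 13.22, 13.43 and 6.30 in the 3 DN-Clim arrays in turn and 8.40 to 10.25 in WT. Cryga was in place 4, at 14.44, 14.76 and 7.84 in DN-Clim and 9.90 to 10.91 in WT. Cryba1, in place 6, read 13.23, 13.46 and 7.18 in DN-Clim and 9.07 to 10.72 in WT. These crystallins and the melanin enzymes were thus lowest on the same array, but the crystallins were far higher on DN-Clim replicates 1 and 2 than in WT, where Dct was at most 0.52 above the WT mean. Scn2a, a sodium channel of neurons, was in place 5. It read 8.11, 8.32 and 5.84 in DN-Clim and 7.84 to 8.37 in WT.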
